A study of Caenorhabditis elegans with 2 samples.

Results

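The spliceosome genes of Caenorhabditis elegans were followed through a genome-wide binding map of UNC-130, a transcription factor of the forkhead family. The members were all protein-coding genes of the WBcel235 annotation whose names start with snr-, snrp-, lsm-, prp-, rsp- or uaf-, which gave 42 of 19985 genes. The choice rests on names, and it was made with earlier results of these data known. Splicing genes with other names, such as the LSm gene gut-2, were not members. For each member the region of highest signal was taken whose summit lay between 1000 bp upstream and 200 bp downstream of one of its transcript starts, here called the promoter window.

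Chromatin immunoprecipitation and sequencing (ChIP-seq) was done on whole young adult hermaphrodites of strain AGK541, in 2 biological replicates of 1 group and no second condition. The strain carries the transgene Pmex5::UNC-130::GFP with the tbb-2 3'UTR and cb-unc-119(+) on chromosome II, the allele unc-119(ed3) on III and niDf199 on IV, so all samples share these alleles. Worms were taken 56 hours after synchronization as starved L1 larvae and their chromatin was sonicated; one label gives an anti-GFP antibody, another names unc-130. The mex-5 promoter is a germline promoter, and the tagged protein was therefore not under control of the unc-130 gene, while whole animals mix all tissues; binding could not be assigned to a cell type.

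The spliceosome removes introns from pre-mRNA and is built from small nuclear ribonucleoproteins (snRNPs), each a small nuclear RNA with a shared ring of Sm proteins and its own set of proteins. A related LSm ring sits on the U6 RNA, and many further pre-mRNA processing (PRP) factors join and leave as the complex assembles and catalyses splicing. SR proteins, rich in arginine and serine, and the U2AF pair help choose splice sites. In C. elegans the same machinery also joins spliced leader RNAs to many transcripts, including those of genes that lie in operons.

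The authors deposited candidate regions called in each replicate and in the replicates pooled, and a final list of optimal peaks that passed their irreproducible discovery rate (IDR) procedure. On the ce11 build the lists held 21622 regions in replicate 1, 20625 in replicate 2, 22106 in the pooled list and 1168 in the optimal list. Their median signals were 10.7, 10.3, 16.7 and 75.3. The signal is the peak caller's own value on a scale not given in the sources used here, so values are ranked within a list and no ratio between lists is given. The optimal peaks were the pooled regions with a signal of 53.5 or more. Read counts are not part of the lists, and the depth is unknown; the 95% Wilson intervals given for shares cover counting error only, and genes that share a region are counted separately.

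The summits of 9 of the 10 splicing genes with an optimal peak fell in the following 30-base stretches of the WBcel235 (ce11) genome, which are shown because the results turn on these promoters; the stretch at lsm-6 is not printed. Each runs 5′ to 3′ on the strand of the named gene, and the capital marks the base at the deposited summit.
prp-19, chrIII:5172655-5172684, minus strand: tacgctccactgcaGtttttcgaattctca
snr-1, chrIV:17087592-17087621, plus strand: gctagtctccaatttCggcgttcttgcgtc
snr-4, chrV:11980289-11980318, minus strand: ctgaatgctccaagGatactgttttccaac
rsp-6, chrIV:7791374-7791403, minus strand: gtgttaccgtactaCacgcatcgcgagcag
lsm-3, chrIV:13386232-13386261, plus strand: agtgtgcggcgttgtTgcaaatcttgtgtg
prp-40, chrIII:9521910-9521939, plus strand: tttctggtgcaagcaAgtgcgccccaccgt
snrp-3, chrIV:8688002-8688031, minus strand: aaattttcgttaaaAaccaaatttgaacac
lsm-8, chrIV:6326000-6326029, plus strand: tttgtcttttagttgTtgttatggtgcttt
prp-18, chrIV:9884421-9884450, minus strand: tgcattgcgctgtcTgcgtctctcattttc

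Of the 42 splicing genes, 10 had an optimal peak in the promoter window, which is 23.8% (interval 13.5% to 38.5%), beside 5.34% of all protein-coding genes. They were prp-19, snr-1, snr-4, rsp-6, lsm-3, prp-40, snrp-3, lsm-6, lsm-8 and prp-18, in falling order of signal. A pooled candidate region was present for 36 of the 42 (85.7%, interval 72.2% to 93.3%), beside 36.5% of all protein-coding genes. Among genes with a pooled region there, 10 of 36 splicing genes had an optimal peak (27.8%, interval 15.8% to 44.0%), beside 14.6% of all such genes. The members' share was therefore higher than that of all genes on either base.

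The count was lower in each replicate taken alone than in the optimal list. The optimal list was made from these same replicates, so their counts are a description and not independent support. Among the best 1168 regions of replicate 1, 8 of the 42 splicing genes were present (19.0%, interval 9.98% to 33.3%), beside 5.16% of all protein-coding genes. Among the best 1168 of replicate 2, 7 of the 42 were present (16.7%, interval 8.32% to 30.6%), beside 5.26% of all genes. In both replicates together 6 members were present (14.3%, interval 6.72% to 27.8%), beside 3.84% of all genes; these were prp-19, snr-1, snr-4, rsp-6, lsm-3 and snrp-3. No member was among the best regions of either replicate without also being optimal (0 of 42, with an upper interval bound of 8.38%). The same share over all protein-coding genes was not computed, so this is not read as a trait of the splicing genes.

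The optimal peaks at splicing genes were of moderate signal. Among genes with an optimal peak, the members' median signal was 72.1 (n = 10, range 53.8 to 243), and that of other genes was 80.9 (n = 1058), mitochondrial genes included. Among all genes with a pooled region, the members' median was 30.2 (n = 36) and that of other genes was 21.3 (n = 7261). The members' highest signal, at prp-19, ranked 22 in the pooled list.

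**Figure D1:**
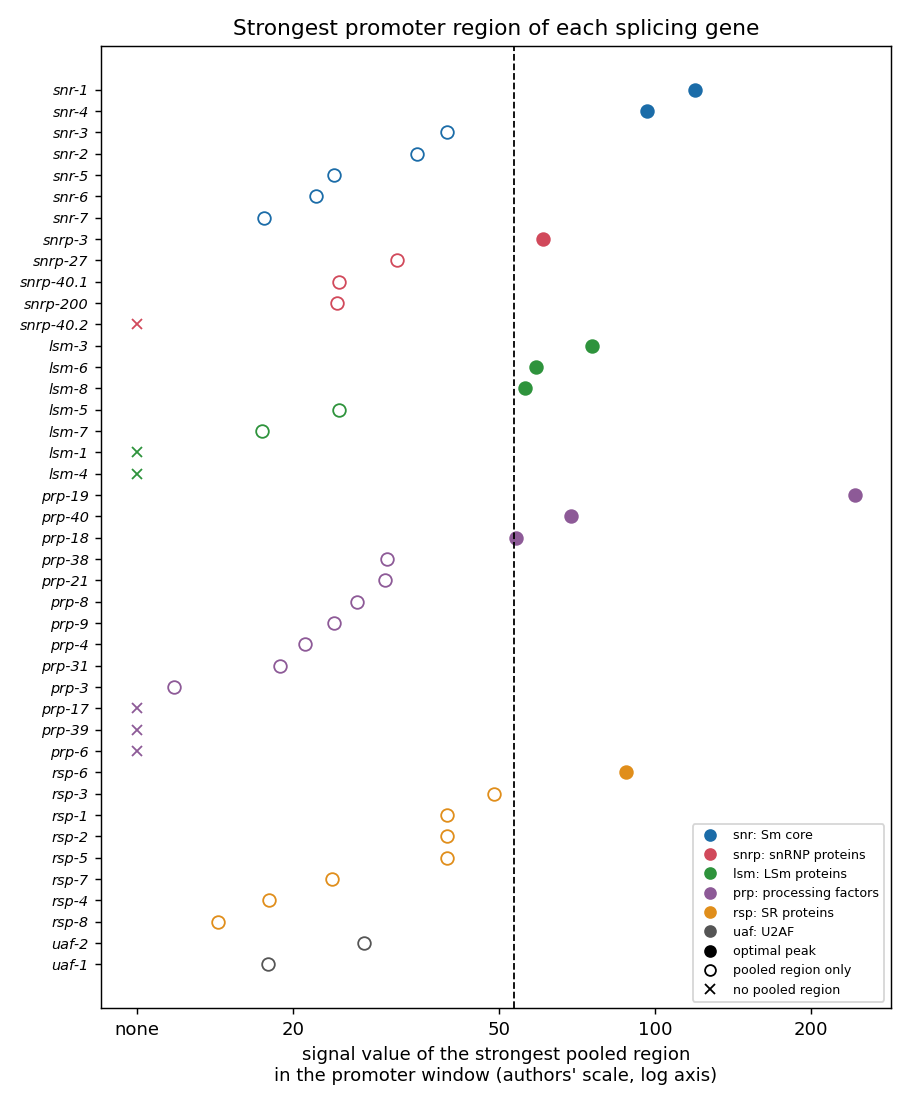
Signal of the strongest pooled region in the promoter window of each of the 42 splicing genes (horizontal log axis, authors' scale), grouped by name prefix. Filled points are the 10 genes with an optimal peak, open points have a pooled region only, crosses have none, and the dashed line is the lowest optimal signal, 53.5; prp-19 at 243 lies far to the right of the other members.

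The snr genes encode the 7 Sm proteins, the ring common to the spliceosomal snRNPs. All 7 had a pooled region and 2 had an optimal peak, beside 36.5% and 5.34% of all protein-coding genes. The peak at snr-1, which encodes SmD3, had a pooled signal of 119 (rank 169), with 57.2 in replicate 1 (rank 260) and 64.9 in replicate 2 (rank 125). It spanned chrIV:17087537-17087717, only 181 bp, with its summit 442 bp upstream of snr-1, in intergenic sequence. The divergent gene snx-13 starts nearer to it, at 169 bp, so the peak lies in a shared promoter.

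The peak at snr-4, which encodes SmD2, had a pooled signal of 96.4 (rank 318), with 62.1 in replicate 1 (rank 203) and 38.2 in replicate 2 (rank 530). It spanned chrV:11980089-11980518 with its summit 581 bp upstream of snr-4 and in no other protein-coding gene's promoter window. Between the summit and snr-4 lies C52E4.8, annotated as a small nuclear RNA gene, on the opposite strand at chrV:11980118-11980261. C52E4.8 is its RefSeq name, and the Ensembl annotation calls the same gene T11F9.15. Its nearer end is 43 bp from the summit, and the peak region covers the whole of it. A peak at snr-4 is therefore also a peak beside an snRNA gene, and to which of these genes the signal belongs was not tested.

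The other Sm genes had pooled regions below the optimal value. SmD1, encoded by snr-3, had 39.6 in the pooled list, 21.1 in replicate 1 and 18.0 in replicate 2. SmB, encoded by snr-2, had 34.7 in the pooled list, 22.0 in replicate 1 and 21.3 in replicate 2. The genes for SmF (snr-5), SmE (snr-6) and SmG (snr-7) had pooled signals of 23.9, 22.2 and 17.6. Over the 7 Sm genes, the ring's subunits thus differed from 17.6 to 119 in signal, with the genes for SmD3 and SmD2 highest in all lists.

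Of the 5 snrp genes, for proteins of particular snRNPs, 4 had a pooled region and 1 had an optimal peak. The shares of all protein-coding genes were 36.5% and 5.34%. The peak at snrp-3 had a pooled signal of 60.7 (rank 911), with 33.6 in replicate 1 (rank 941) and 30.8 in replicate 2 (rank 850). It spanned chrIV:8687802-8688231, with its summit 207 bp upstream of the gene and in no other protein-coding gene's promoter window. The next gene upstream on the same strand, hst-1, ends 465 bp before snrp-3 and had no pooled region of its own.

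The remaining snrp genes were weaker or without a region. The gene snrp-27, for a protein of the U4/U6.U5 tri-snRNP, had 31.7 in the pooled list, 27.8 in replicate 1 (rank 1368) and 11.7 in replicate 2 (rank 7527), and the replicates' summits were 495 bp apart. The gene snrp-200, for the Brr2-type helicase of U5, had 24.3 in the pooled list and 26.3 in replicate 1 (rank 1542), and no region in replicate 2. Of the paired WD-repeat genes of U5, snrp-40.1 had 24.6 in the pooled list and 11.9 in replicate 2 (rank 7317), and snrp-40.2 had no region in any list. Replicate 1 had a region of 13.1 (rank 6816) at the pooled summit of snrp-40.1, with its own summit just past the window. The replicates thus gave snrp-40.1 similar ranks at different places, and snrp-27 different ranks.

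The lsm genes encode the LSm proteins, which form a ring on U6 RNA in the nucleus and, with LSm1 in place of LSm8, a ring that acts in mRNA decay in the cytoplasm. Of the 7 members, 5 had a pooled region and 3 had an optimal peak, beside 36.5% and 5.34% of all protein-coding genes. The peak at lsm-3 had a pooled signal of 75.5 (rank 581), with 41.9 in replicate 1 (rank 591) and 37.2 in replicate 2 (rank 566). Its summit lay 956 bp upstream of lsm-3, near the edge of the window. The starts of Y62E10A.23 (77 bp), mdt-9 (133 bp) and the divergent Y62E10A.20 (156 bp) were all nearer, and a second, weaker pooled region in the lsm-3 window had a signal of 35.1.

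The peak at lsm-6 had a pooled signal of 58.9 (rank 980), with 32.5 in replicate 1 (rank 1019) and 26.3 in replicate 2 (rank 1195). Its summit lay 156 bp upstream of lsm-6, the nearest start, in the 232 bp gap between lsm-6 and the end of ubc-3 on the same strand. In replicate 2 it fell just outside the best 1168 regions.

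The gene lsm-8 encodes the subunit that sets the nuclear U6 ring apart from the cytoplasmic one. Its peak had a pooled signal of 56.0 (rank 1065) and 32.3 in replicate 2 (rank 767). At the same place replicate 1 had 23.2 (rank 1966), while the strongest replicate 1 region in the window, 24.2 (rank 1804), lay 710 bp from the replicate 2 summit and downstream of the start. The pooled summit lay 511 bp upstream of lsm-8, inside an exon of sqd-1, whose end is 103 bp before lsm-8 on the same strand. The sqd-1 promoter window held an optimal peak of its own, with a signal of 85.1.

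The genes of the cytoplasmic ring's own subunit and of the other LSm proteins were low. No pooled region was found for lsm-1, which had 8.26 in replicate 1 (rank 18273) and 9.61 in replicate 2 (rank 12150), with summits at different places, or for lsm-4, which had none in any list. The genes lsm-5 and lsm-7 had pooled signals of 24.6 and 17.4. An optimal peak with a signal of 57.9 had its summit within the short lsm-7 gene, 501 bp downstream of the start and past the window, and the region chrIV:10933788-10934217 ran on past the gene's end.

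**Figure D2:**
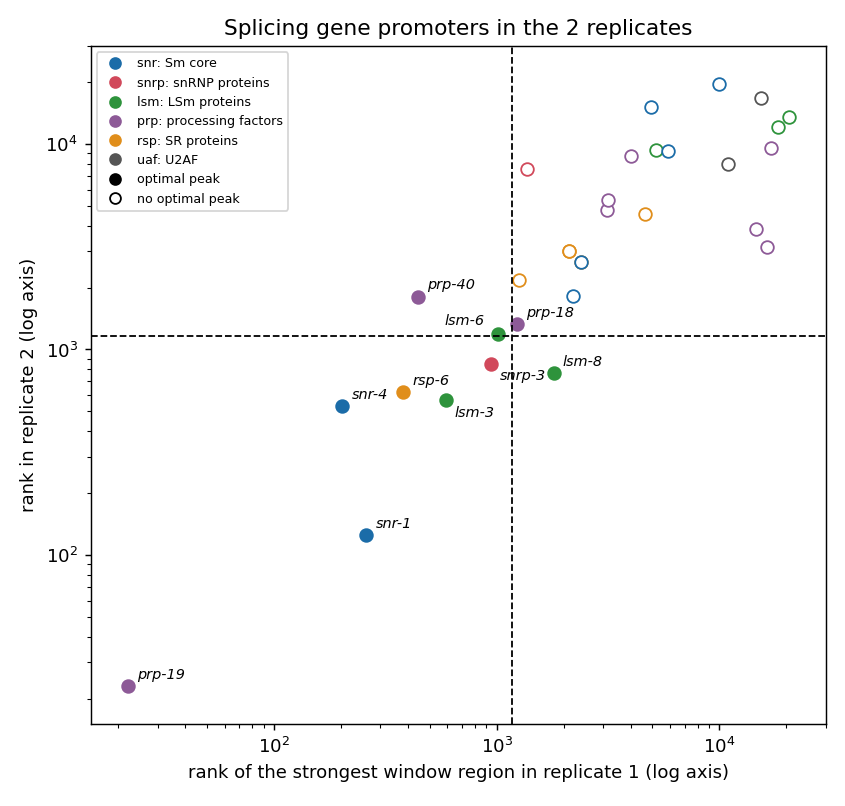
Rank of the strongest promoter region in replicate 1 (horizontal log axis) against replicate 2 (vertical log axis) for the 32 splicing genes with a region in each; rank 1 is the strongest. Filled points are optimal, open points are not, and dashed lines mark rank 1168; 6 genes lie below both lines, and prp-19 is at 22 and 23.

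The prp genes encode pre-mRNA processing factors, most of them named after yeast counterparts. Of the 13 members, 10 had a pooled region and 3 had an optimal peak, beside 36.5% and 5.34% of all protein-coding genes. The gene prp-19 encodes the ubiquitin ligase at the core of the Prp19 complex, which is needed for the active spliceosome. Its peak had a pooled signal of 243 (rank 22), with 134 in replicate 1 (rank 22) and 112 in replicate 2 (rank 23), the highest of any member in every list. The peak spanned chrIII:5172548-5172841, and the replicates' summits were 4 bp apart. It lay 625 bp upstream of prp-19 but 50 bp from the start of the divergent gene K10D2.5, and it also fell in the window of emb-1.

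The gene prp-40 encodes a protein of the U1 snRNP, known from yeast. Its peak at chrIII:9521710-9522139 had a pooled signal of 68.7 (rank 724), with 47.4 in replicate 1 (rank 443) and 21.5 in replicate 2 (rank 1806). The summit was 150 bp upstream of prp-40, with the divergent clu-1 465 bp away, and the replicates' summits were 13 bp apart. The replicates thus placed it alike and ranked it differently.

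The gene prp-18 encodes a factor of the second catalytic step of splicing. Its peak at chrIV:9884221-9884650 had a pooled signal of 53.8 (rank 1149), with 29.6 in replicate 1 (rank 1237) and 24.9 in replicate 2 (rank 1334). It was the member closest above the optimal value of 53.5 and was outside the best 1168 regions in each replicate. The summit was 53 bp upstream of prp-18 and 134 bp from the divergent mccc-1.

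Among the other prp genes, pooled signals were 30.3 at prp-38, 30.1 at prp-21, 26.5 at prp-8, 24.0 at prp-9, 21.1 at prp-4, 18.9 at prp-31 and 11.8 at prp-3. The gene prp-8 encodes the scaffold of the catalytic core, prp-21 and prp-9 encode SF3a subunits of U2, and prp-3, prp-4 and prp-31 encode U4/U6 proteins. No pooled region was found for prp-6, a tri-snRNP gene, prp-17 or prp-39. The gene prp-17 had only a weak region in replicate 2 (7.88) and prp-39 only one in replicate 1 (8.81), while prp-6 had none. The U4/U6 genes prp-4, prp-31 and prp-3 thus had the lowest pooled signals of this prefix.

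The rsp genes encode SR proteins, which bind exons and recruit the splicing machinery. All 8 had a pooled region and 1 had an optimal peak, beside 36.5% and 5.34% of all protein-coding genes. The peak at rsp-6, whose product resembles human SRp20, had a pooled signal of 88.0 (rank 405), with 49.8 in replicate 1 (rank 380) and 35.8 in replicate 2 (rank 621). It spanned chrIV:7791174-7791603 with its summit 160 bp upstream of rsp-6, the nearest start, and in no other protein-coding gene's window.

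The gene rsp-3, for the SF2/ASF homologue, was the member closest below the optimal value. It had 48.9 in the pooled list (rank 1386), 29.2 in replicate 1 (rank 1259) and 19.8 in replicate 2 (rank 2173), with the summit 247 bp upstream and 149 bp from the divergent spin-4.

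A pair of promoters was shared between members. The divergent genes rsp-1 and rsp-2 shared a region with 39.6 in the pooled list (rank 1966), 22.4 in replicate 1 and 17.0 in replicate 2, 167 bp from rsp-1 and 240 bp from rsp-2. The divergent genes rsp-5 and snr-3 shared another, also 39.6 (rank 1974), with 21.1 in replicate 1 and 18.0 in replicate 2, 191 bp from rsp-5 and 213 bp from snr-3. These 4 genes thus count 2 regions. The remaining SR genes had pooled signals of 23.8 at rsp-7, 18.0 at rsp-4, whose product resembles SC35, and 14.3 at rsp-8.

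The U2AF pair, which reads the 3′ splice site, had pooled regions and no optimal peak. Of all protein-coding genes, 36.5% had a pooled region and 5.34% an optimal peak. The gene for the small subunit, uaf-2, had 27.5 in the pooled list, 10.7 in replicate 1 and 11.4 in replicate 2, in an intron and 96 bp from the snoRNA gene Y116A8C.50. The gene for the large subunit, uaf-1, had 17.9 in the pooled list, 9.10 in replicate 1 and 8.28 in replicate 2. The summits of these strongest replicate regions were 599 bp apart. At the pooled summit, where the replicate 2 region lay, replicate 1 had a weaker region of 8.78. The pooled value at uaf-1 was close to the median of the pooled list, 16.7.

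By prefix, the optimal share was 42.9% for lsm (3 of 7, interval 15.8% to 74.95%), 28.6% for snr (2 of 7, interval 8.22% to 64.1%) and 23.1% for prp (3 of 13, interval 8.18% to 50.3%). It was 20% for snrp (1 of 5, interval 3.62% to 62.4%) and 12.5% for rsp (1 of 8, interval 2.24% to 47.1%). Neither uaf gene had an optimal peak (0 of 2, upper interval bound 65.8%). Over all protein-coding genes the share was 5.34%, which lies inside the intervals of snrp, rsp and uaf. The intervals overlap widely, and no order among the prefixes can be read at these numbers.

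**Figure D3:**
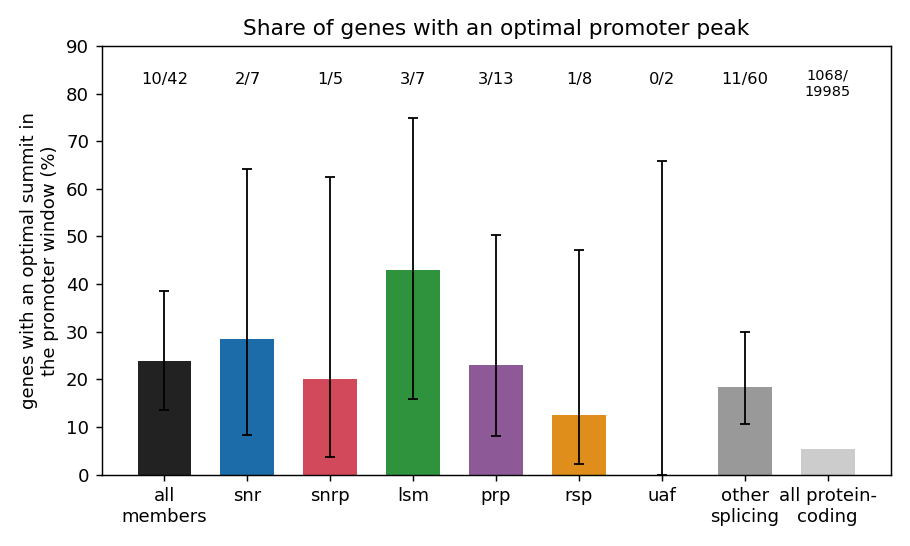
Share of genes with an optimal summit in the promoter window (vertical axis, percent), for all 42 members, each name prefix, the 60 other splicing genes and all 19985 protein-coding genes. Error bars are 95% Wilson intervals and the counts stand above the bars; the members' bar is at 23.8% and that of all genes at 5.34%.

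The 10 optimal members differed in how their peaks lay to the gene and its neighbours. All 10 summits lay upstream of the start, at a median of 324.5 bp (quartiles 157 and 563.5 bp). For the other 1058 optimal genes the median was 237 bp, and only 63 of them had a summit downstream. The summit also fell in another protein-coding gene's window for 6 of 10 members, beside 58.3% of the other optimal genes. The member's own start was the nearest for 7 of 10, beside 68.5%. The 3 exceptions were prp-19, snr-1 and lsm-3, which include the strongest peaks at an Sm gene and at a prp gene. Summits were intergenic for 9 of 10 members, beside 78.1% of other optimal promoter summits, and a tRNA, snoRNA or snRNA gene lay within 200 bp of 1 of 10 (snr-4), beside 10.3%. In these shares the members were close to the other optimal genes.

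Over all 36 members with a pooled region, the summit was shared with another protein-coding gene's window for 23 (63.9%). The share was 31.5% for other genes with a pooled region. The member's own start was nearest for 24 (66.7%), beside 81.2% of those genes. These counts include the optimal genes, and the 23 members count the region of rsp-1 and rsp-2 and that of rsp-5 and snr-3 for both genes. No test was made because neighbouring genes are not independent.

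**Figure D4:**
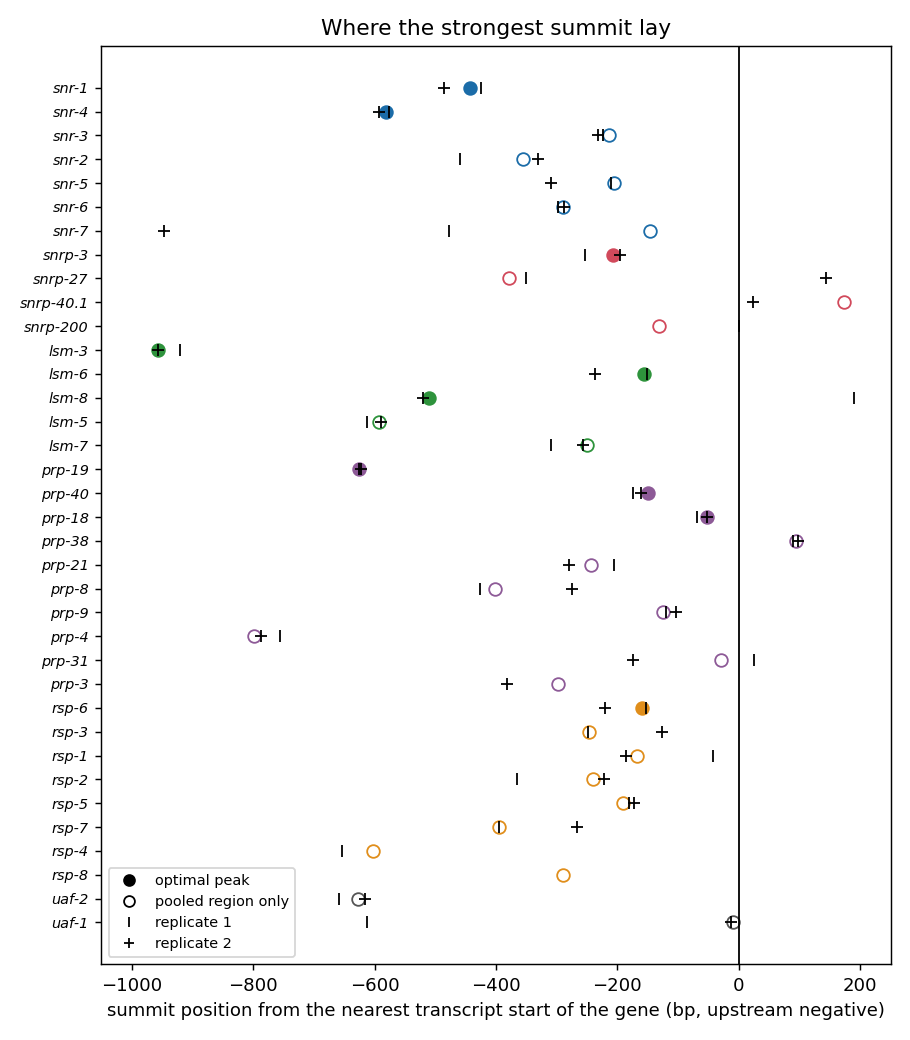
Position of the strongest summit relative to the nearest transcript start of each of the 36 splicing genes with a pooled region (horizontal axis, bp, upstream negative). Filled circles are optimal, open circles pooled only, and ticks and plus signs give replicates 1 and 2; all 10 optimal summits lie upstream, and the replicate 1 tick of lsm-8 lies apart.

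The optimal list was made by a procedure that selects regions found in both replicates, so that closeness of the replicates at optimal genes is partly fixed by that choice and is given as a description. The replicates' summits lay within 100 bp of each other for 9 of 10 optimal members (median gap 46.5 bp), with lsm-8 the exception, and for 973 of 1055 other optimal genes (92.2%). For members with no optimal peak this held for 11 of the 21 that had a pooled region and a region in each replicate. The same share was not computed for other genes without an optimal peak. Each gap is between the strongest window regions of the replicates, which need not be the same site. Across the 32 members with a region in each replicate, Spearman's rho between the replicate signals was 0.88, and across 4518 other genes it was 0.692. These correlations are across genes of the same pair of libraries, some of which share a region, and are a description without a test.

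The optimal members were unevenly spread over the chromosomes. On chromosome IV 6 of 8 splicing genes had an optimal peak (75%, interval 40.9% to 92.9%), beside 188 of 3281 protein-coding genes there (5.73%). These were snr-1, rsp-6, lsm-3, snrp-3, lsm-8 and prp-18, each with a peak of its own. On chromosome II none of 11 members had an optimal peak (upper interval bound 25.9%), beside 192 of 3449 genes there (5.57%). On I the members' count was 1 of 8 (12.5%), beside 8.30% of genes there, and on III 2 of 9 (22.2%), beside 9.73%. On V it was 1 of 5 (20%), beside 3.16%, and on X 0 of 1, beside 0.81%. With so few members on each chromosome, this is a description of these genes.

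**Figure D5:**
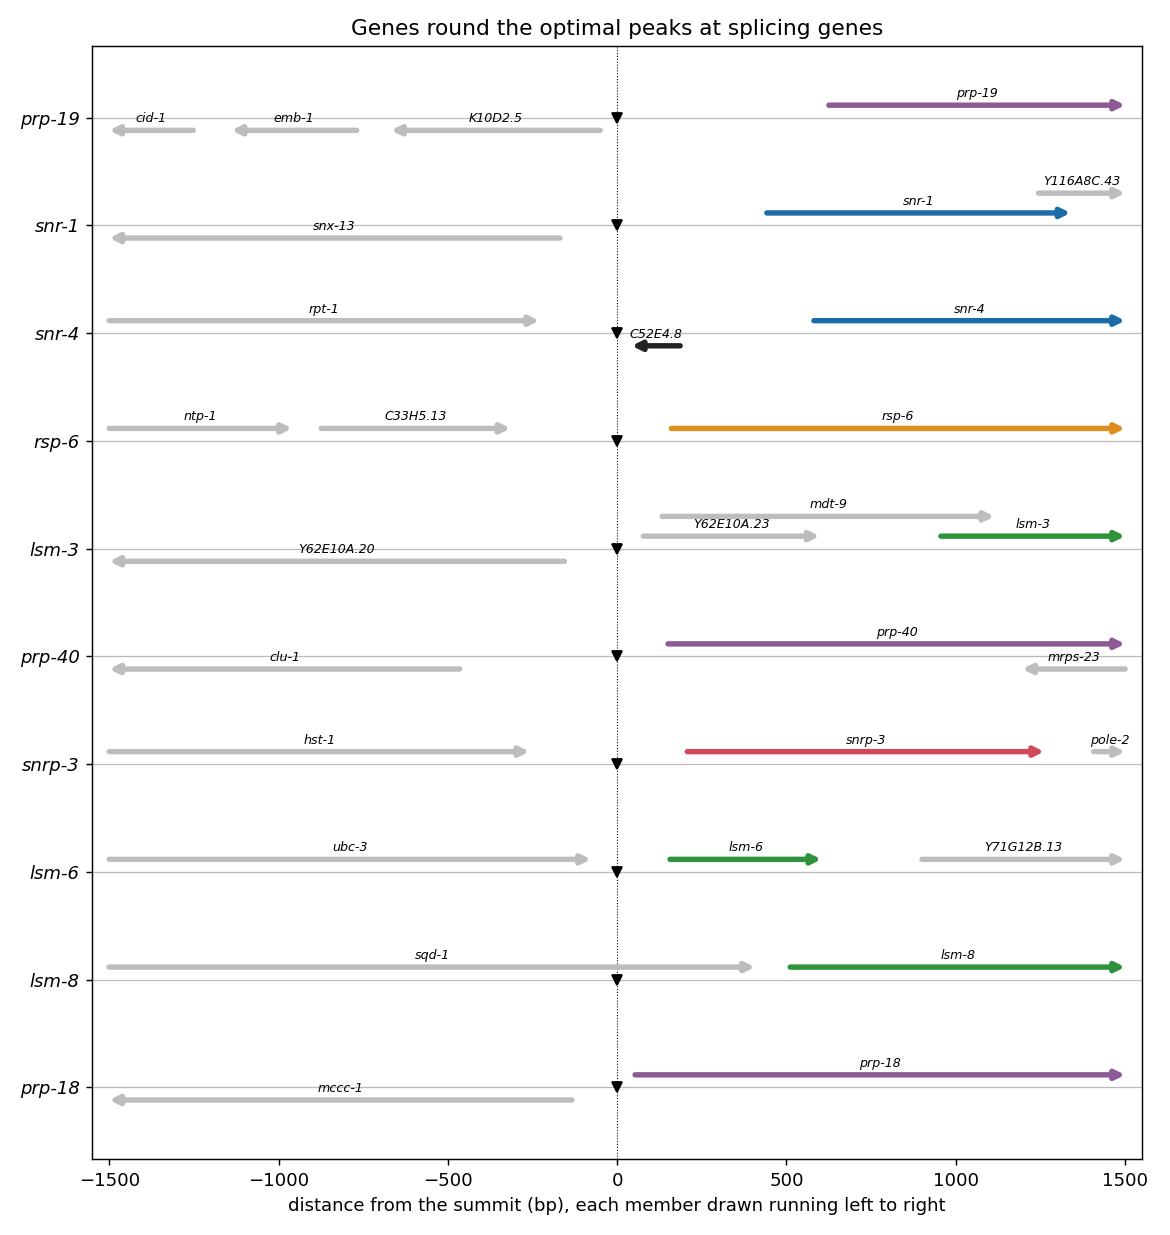
Genes within 1500 bp of the 10 optimal summits at splicing genes (horizontal axis, distance from the summit in bp), each drawn so that the member, in colour, runs left to right. Grey arrows are other protein-coding genes, the black arrow is the snRNA gene C52E4.8, and triangles mark the summits; divergent neighbours run to the left at prp-19, snr-1, lsm-3, prp-40 and prp-18.

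Many C. elegans genes are transcribed together from the promoter of an upstream gene. Operon annotation was not used here, so genes on the same strand with gaps of at most 500 bp were joined into runs by position alone. Of the 42 splicing genes, 13 (31.0%) lay behind another gene, beside 20.2% of other genes. Of these 13, 5 had an optimal peak in their own window (38.5%, interval 17.7% to 64.5%), beside 5.92% of other genes in such places, and they were lsm-3, lsm-6, lsm-8, rsp-6 and snrp-3. Of the 29 members not behind another gene, 5 had one (17.2%, interval 7.60% to 34.5%), beside 5.15% of such other genes.

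The first gene of the run had an optimal peak for 6 of the 13 (46.2%, interval 23.2% to 70.9%), beside 11.4% of other genes behind another. For prp-38 it was plrg-1, itself a gene of the Prp19 complex, with a signal of 81.2 and a gap of 106 bp to prp-38. For prp-39 it was hmgs-1 (63.7, gap 90 bp), for prp-3 it was smrd-1 (62.9, gap 344 bp), for lsm-8 it was sqd-1 (85.1), for rsp-6 it was sgo-1 (125) and for lsm-3 it was Y62E10A.23, with the same peak. The genes prp-38, prp-39 and prp-3 had no optimal peak in their own windows. When each member was counted by the first gene of its run, or by itself where it was first, 11 of 42 had an optimal peak (26.2%, interval 15.3% to 41.1%), beside 6.41% of other genes.

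For the 32 members without an optimal peak in the window, the nearest optimal summit on the chromosome was a median of 13876.5 bp from a start (range 457 to 390065 bp), and 11 lay within 5000 bp. The closest was at snr-6, whose start lay 457 bp from a summit at its own 3′ end, in a peak at chrIII:12428957-12429386 with a signal of 54.7. That region overlaps the end of pie-1, a germline gene on the opposite strand. The farthest was at prp-6, which had no candidate region in any list. Such distances were not computed for other genes, so the members' distances are not called near or far here.

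The list of other splicing genes, also chosen with earlier results of these data known, held 66 symbols, of which 60 are in the annotation. Of these 60, 11 had an optimal peak (18.3%, interval 10.6% to 29.9%), beside 5.34% of all protein-coding genes. A pooled region was present for 42 of the 60 (70%), beside 36.5% of all protein-coding genes. The strongest were mog-4, for a DEAH-box helicase that also acts in the germline sperm to oocyte switch, at 223, and smn-1, for the snRNP assembly factor, at 183 in a window shared with klp-16. Next were mog-3 at 100, cdc-5L at 90.8 and plrg-1 at 81.2. Below them were teg-1 at 76.0 (shared with mcm-10), swp-1 at 72.4, ddx-23, for the Prp28-type helicase, at 64.2, the SR protein kinase gene spk-1 at 63.8 (shared with rheb-1) and teg-4 at 55.05.

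The strongest pair of this list ranked alike in the replicates, as prp-19 did, and the next genes less so. The gene mog-4 had 121 in replicate 1 (rank 27) and 101 in replicate 2 (rank 29), and smn-1 had 99.0 in replicate 1 (rank 46) and 85.8 in replicate 2 (rank 45). The ranks in replicates 1 and 2 were 478 and 213 for mog-3, 219 and 970 for cdc-5L, and 789 and 416 for plrg-1. The gene smu-2, picked out after its values were seen, had 44.3 in replicate 1 (rank 521) and 41.6 in replicate 2 (rank 420), yet no pooled region in its window in the list used here. Members and this list together gave 21 of 102 genes with an optimal peak (20.6%, interval 13.9% to 29.4%), beside 5.34% of all protein-coding genes.

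Short strings tied to known factor families were searched on both strands in the 200 bp centred on each summit. GTAAACA, a forkhead consensus, was in none of the 10 optimal member windows and none of the 24 other member windows, beside 3.25% of 770 other optimal promoter windows and 2.86% of 7508 weaker ones. Its core TAAACA, which GTAAACA contains, was in 1 of 10 optimal member windows (prp-40) and 5 of the 24 other member windows (20.8%), beside 15.7% of the other optimal windows and 16.4% of weaker ones. The reversed control ACAAATG was in none of the 10, beside 4.55% of the other optimal windows. For a count of 0 of 10 the upper interval bound is 27.8%, above each of these shares, so an absence of these strings was not detectable with 10 windows.

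E2F-type strings, known from promoters of growth and cell cycle genes, were searched in several forms. The form TTCCCGC was found in the snr-1 window. The form TTGGCGC was found in the prp-40 window, and the form TTCGCGC was found at a pair of places in the rsp-6 window. The form TTGCCGC was searched as well and was in no optimal member window. Any of them was in 3 of 10 optimal member windows (30%, interval 10.8% to 60.3%), beside 27.9% of other optimal windows and 10.1% of weaker ones. Among the 24 other member windows they were in 1, that of rsp-8. The E-box CACGTG was in 1 of 10 (snrp-3), beside 3.77% of other optimal windows, CCGCCC in 1 of 10 (prp-19), beside 8.57%, and GAGAGA in 1 of 10 (prp-18), beside 19.1%. TGATAA, which GATA factors bind, was in none of the 10, beside 11.04%. The members' median GC content in these windows was 37.75%, and that of the other optimal windows was 39%.

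The matches are printed because they are the matches found at the members' optimal summits, with opposite-strand repeats left out. Another GAGAGA match at prp-18, 20 bp from the summit, was also left out because its 30-base stretch overlaps the one shown. Each printed match is on the strand that reads the string, with the string in capitals. Its centre lay from 6 to 90 bp from the summit. A match is a description of the letters, not a bound site.
snr-1, chrIV:17087637-17087666, plus strand: tcatgaggcccTTCCCGCaaacgcgcccca
rsp-6, chrIV:7791332-7791361, minus strand: tattgaaatcatTTCGCGCgcgttgctctc
rsp-6, chrIV:7791437-7791466, minus strand: ttttcgttcgaaTTCGCGCcgttatctcac
prp-40, chrIII:9521873-9521902, plus strand: caatcatcacgTTGGCGCgatcctcgttca
prp-40, chrIII:9522000-9522029, minus strand: gaaaatgtagcaTAAACAaaatttgtggaa
prp-19, chrIII:5172690-5172719, minus strand: atttcttcggccCCGCCCggaaaagctgca
snrp-3, chrIV:8687983-8688012, plus strand: cagtaatttattCACGTGggtgttcaaatt
prp-18, chrIV:9884415-9884444, plus strand: gagacagaaaatGAGAGAcgcagacagcgc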

How the data were processed

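UNC-130-GFP ChIP-seq region lists of 2 biological replicates were analysed; replicate numbers came from the labels. Per the file headers and listings, the authors derived each list from the replicates' alignments and 1 control, which was not analysed here. The aligner, the peak caller, the IDR threshold and the signal's scale were not stated in the labels or files. The authors deposited a signal value for each region, a −log10 q-value, which was 3.56 for every optimal peak and was not used further, and a summit position, counted in bases from where the region begins (a unit of its own, called other). Columns without a sample or pool numbered 0.

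Summits on ce11 were joined to Ensembl release 115 transcript starts and RefSeq sequence of WBcel235, the same assembly. A summit counted for every promoter window of a protein-coding gene that held it. Regions were ranked by signal. Coordinates are 1-based. Python 3.11.15, pandas 2.3.3, numpy 2.4.6, scipy 1.17.1 and matplotlib 3.10.9 were used, and the assignment was tested on simulated data. With 1 group no test between conditions was made, and no p-value is given.

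Named genes were all members with an optimal peak, the 6 of highest pooled signal without one, those with no pooled region, and up to 10 other splicing genes by signal; remaining members are given by value. The members, the list of other splicing genes and the strings were chosen with earlier results of these data known. Alternatives were windows of 500 and 2000 bp upstream, each replicate alone, the 584 strongest peaks, the nearest start only and string windows of 100 and 400 bp. Added after the data were seen were coding transcripts only, the lowest optimal ce10 signal and the first gene of a run.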

Additional observations from a re-analysis of the deposited data

How the results depend on the processing

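The count of 10 splicing genes with an optimal peak kept within 1.5 times of its value under 7 of 9 alternatives. It fell to 6 with a window of 500 bp upstream, which drops lsm-3, lsm-8, prp-19 and snr-4 (4.38% of all genes), and to 5 with the 584 strongest peaks, which drop lsm-6, lsm-8, prp-18, prp-40 and snrp-3 (2.98% of all genes). The share of all genes was 6.68% with 2000 bp upstream, 3.71% with the nearest start only and 6.51% with the lowest optimal ce10 signal, at which rsp-3 joined the members' count. In these settings 12, 7 and 11 members had an optimal peak. The nearest start only drops lsm-3, prp-19 and snr-1, and 2000 bp adds rsp-7 and snr-3. Each replicate alone gave 7 to 8 members and 5.16% to 5.26% of all genes. No paired analysis was possible because the series holds 1 group.

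By prefix, snr fell to 1 with 500 bp and with the nearest start only. The lsm count fell to 1 with 500 bp and with the 584 strongest peaks, which also left 0 snrp, 1 prp and 6 of the other splicing genes. The rsp count was 2 with 2000 bp and with the ce10 value, and prp was 1 to 2 with a replicate alone. TAAACA was at 0 with a 100 bp window and with each replicate's summits. TGATAA was at 2 and ACAAATG at 1 with 400 bp, and each was at 0 to 1 with a replicate alone. The cause was not tested. Of 16 named members' signals, lsm-3 and lsm-8 changed to 35.1 and 34.6 with 500 bp and snr-3 to 81.96 with 2000 bp. The genes prp-19 and snr-4 had no pooled region left with 500 bp, and so no signal. With the unknown depth, a missing region is not evidence that the factor was absent there.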
